A study of Mus musculus with 8 samples.

Results

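The 7 genes described here encode both subunits of the GABA-B receptor (Gabbr1 and Gabbr2), the proteins Kctd8, Kctd12 and Kctd16 that bind this receptor as auxiliary subunits, and the GABA-A receptor subunits α2 (Gabra2) and γ1 (Gabrg1). All non-control probes of the array that carry one of these gene names were taken, which gave 14 probes of 7 genes among 55681 probes, and all 14 were well above background on all 8 arrays. RNA was taken from the lumbar dorsal root ganglia (DRG) L3 to L5, the ganglia that hold the cell bodies of sensory neurons, of a mouse model of Fabry disease (FD) and of wildtype mice. FD mice were male α-Gal A(-/0) mice on a C57BL/6 background, which lack the lysosomal enzyme α-galactosidase A in all tissues, and controls were male wildtype C57BL/6J mice, all 20 to 24 weeks old and untreated. Each group had 8 mice, and the ganglia of 2 mice were pooled for a sample, so that 4 FD samples were compared with 4 wildtype samples. According to the methods, the groups came from separate inbred colonies, so genotype and colony cannot be told apart.

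GABA is the main inhibitory transmitter of the adult central nervous system. GABA-A receptors are chloride channels built of several subunits. In sensory neurons of the DRG the chloride gradient is such that opening these channels depolarizes the cell, and receptors on the central terminals take part in presynaptic inhibition in the spinal cord. The GABA-B receptor couples to inhibitory G proteins. Gabbr1 binds the ligand, Gabbr2 couples to the G protein and brings Gabbr1 to the cell surface, and the receptor acts on potassium channels, presynaptic calcium channels and adenylyl cyclase. Kctd8, Kctd12, Kctd12b and Kctd16 bind the tail of Gabbr2 and shape the kinetics of the G protein response.

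Gabbr1, Gabbr2 and Gabrg1 were each read by several probes at different places of the transcript, and each probe is given by itself below. The sequences below are those of Gabbr1 and Gabrg1 probes that lie farther from the end of the transcript than the brightest probe of their gene, as given by the array design, in lower case, each 60 bases long. Positions are those of the files, on mm9. An annotation of mm9 was not used here, so exons are not given.
Gabbr1 probe 2, chr17:37209174-37209232, plus strand: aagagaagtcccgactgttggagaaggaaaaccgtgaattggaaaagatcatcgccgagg
Gabbr1 probe 3, chr17:37206959-37207018, plus strand: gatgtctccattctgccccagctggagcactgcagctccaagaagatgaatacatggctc
Gabrg1 probe 2, chr5:71169324-71169383, minus strand: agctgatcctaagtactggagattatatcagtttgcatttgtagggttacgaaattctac
In the Gabbr1 transcript of the design, probes 3, 2 and 1 start at bases 2571, 2974 and 4221. In that of Gabbr2, probes 1 and 2 start at bases 3334 and 3678. In that of Gabrg1, probe 2 starts at base 1078 and probe 1 at base 3816. Probes of a gene are numbered here by brightness, the brightest first.

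Values are log2 signals after quantile normalization, and a probe or gene is said to have changed when its adjusted p in limma (Benjamini-Hochberg, over all 29432 probes tested) was under 0.05. Between 56.5% and 60.8% of all probes were well above background on an array, and no spot was saturated. All 8 arrays lay on 1 slide and were read in 1 scan. Row 1 of the slide held FD samples 1 to 3 and wildtype sample 1, and row 2 held FD sample 4 and wildtype samples 2 to 4. The labels do not tie replicates to litters or days, so p-values measure the spread between pools. Gla, the gene of α-galactosidase A, has 1 tested probe, with 16.59 ± 0.096 in FD and 16.62 ± 0.11 in wildtype samples (SD, n = 4 each; adjusted p = 0.879 in limma). Whether this probe lies in the part of the gene that the targeted allele lacks is not given in the sources used here, so it checks nothing about the genotype labels. General markers of sensory neurons were well above background on all arrays (9 of 9 tested). Of the 9 spinal cord markers 4 were tested. Slc6a5 and Gad2 were well above background on 0 of 8 arrays, Slc32a1, Gfap and Mobp on fewer than 8, and of the 4 tested Aqp4 was higher in FD (log2 fold change of 0.39, SE 0.080, adjusted p = 0.041 in limma), while Chat had -0.46 (SE 0.18, adjusted p = 0.239). Of these 4, 3 had an unadjusted p under 0.05 in limma (2 higher and 1 lower in FD), and the median log2 fold change was 0.10. The mean centred signal of these 4 lay between -0.14 and 0.12 in FD samples and between -0.06 and 0.05 in wildtype samples.

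Of the 7 genes, only Kctd16 was called, with a lower signal in FD DRGs. Its fall was 1.30-fold. Among the 14 probes, 1 was lower and 0 were higher in FD at an adjusted p under 0.05, while 3.07% of all tested probes were called (1.11% lower and 1.96% higher). At an unadjusted p under 0.05 in limma there were 2 of 14, with 17.6% of all tested probes. Groups did not overlap for 3 of 14 probes, 1 each of Gabbr1, Gabbr2 and Kctd16, all with FD lower, beside 13.4% of all tested probes (5.1% with FD lower). The log2 fold change was below 0 for 9 of 14 probes and for 44.7% of all tested probes, with a median of -0.13 over the 14 probes, -0.01 over the brightest probe of each gene and 0.02 over all tested probes. Under the study's own criteria applied with the methods' t-test (unadjusted p of at most 0.01 and a fold change of at least 1.2), 1 of 14 probes passed, that of Kctd16, beside 3.56% of all tested probes. In RNA of whole ganglia, fewer cells of a type and less RNA per cell cannot be told apart.

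**Figure D1:**
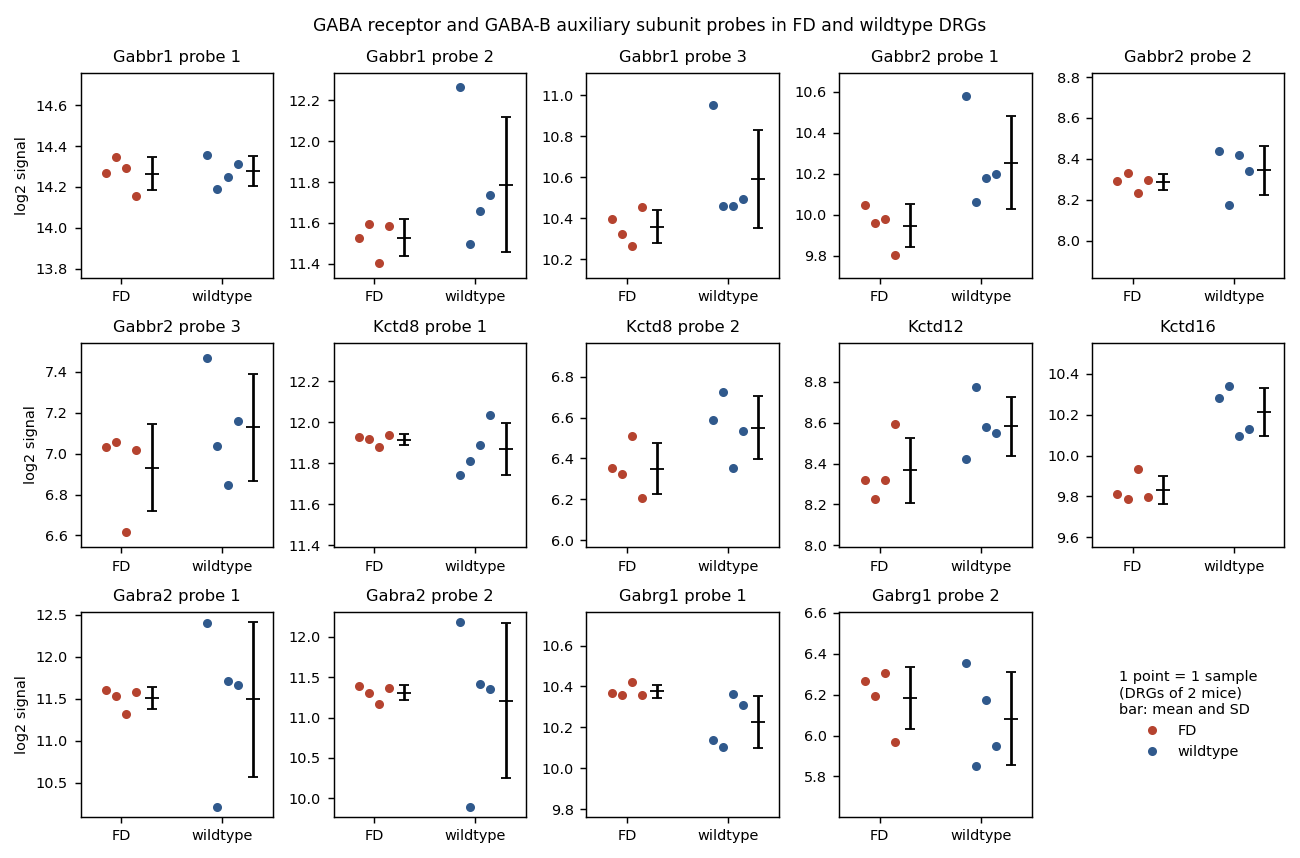
Log2 signal of the 14 probes of the 7 genes, with 1 point per sample, FD on the left and wildtype on the right of each panel, and the mean and SD of 4 samples as a bar; each panel has its own axis. FD samples of Kctd16 all lie below the wildtype samples, and the wildtype samples of Gabra2 spread from 10.21 to 12.40 for probe 1 while the FD samples lie between 11.32 and 11.60.

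Gabbr1, the subunit that binds GABA, had its brightest probe (probe 1, chr17:37210986-37211045, plus strand) at log2 signals of 14.27, 14.34, 14.29 and 14.16 in FD samples, against 14.36, 14.19, 14.25 and 14.31 in wildtype samples. The groups overlapped throughout. Its log2 fold change was -0.01 (SE 0.064, 95% interval -0.16 to 0.13, adjusted p = 0.939 in limma), so that the interval holds fold changes of up to 1.12 in either direction. The sign of this value turned with the scaling to the 75th percentile (0.047).

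The other probes of Gabbr1, whose sequences are given above, had lower means in FD, and neither was called. Probe 2 had 11.53, 11.60, 11.40 and 11.58 in FD samples and 12.26, 11.50, 11.66 and 11.74 in wildtype samples, a log2 fold change of -0.26 (SE 0.15, adjusted p = 0.406 in limma). Probe 3 had 10.40, 10.32, 10.26 and 10.45 in FD samples and 10.95, 10.46, 10.46 and 10.50 in wildtype samples, a log2 fold change of -0.23 (SE 0.12, adjusted p = 0.334 in limma). For probe 3 every FD sample lay below every wildtype sample, by a narrow margin. For both probes wildtype sample 1 stood above the other 3 wildtype samples, and within row 2 of the slide, without that sample, FD sample 4 differed from the mean of wildtype samples 2 to 4 by -0.04 for probe 2 and -0.02 for probe 3. Without wildtype sample 1 the log2 fold change of probe 2 was -0.10 and that of probe 3 was -0.11.

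Gabbr2, the subunit that couples to the G protein, was lower in FD for each of its 3 probes by mean, and none was called. Probe 1 (chr4:46677374-46677433, minus strand) had 10.05, 9.96, 9.98 and 9.80 in FD samples, against 10.58, 10.06, 10.18 and 10.20 in wildtype samples. The highest FD sample and the lowest wildtype sample were close to each other, with no overlap. The log2 fold change was -0.31 (SE 0.11, 95% interval -0.57 to -0.05), with an unadjusted p of 0.0239 and an adjusted p of 0.202 in limma. With the row of the slide as a block it was -0.47 (SE 0.077, adjusted p = 0.0257 in limma), which passes the threshold, and within the rows the difference was -0.59 in row 1 and -0.34 in row 2. Without wildtype sample 1, the highest, the log2 fold change of probe 1 was -0.20.

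Gabbr2 probe 2 (chr4:46677030-46677089), which lies close to probe 1 on the same strand, had 8.29, 8.33, 8.23 and 8.29 in FD samples and 8.44, 8.17, 8.42 and 8.34 in wildtype samples. The groups overlapped, and its log2 fold change was -0.06 (SE 0.070, adjusted p = 0.720 in limma). Probe 3, the dimmest of the gene, had 7.03, 7.06, 6.62 and 7.02 in FD samples and 7.47, 7.04, 6.85 and 7.16 in wildtype samples, a log2 fold change of -0.20 (SE 0.15, adjusted p = 0.525 in limma). FD sample 3 was the lowest of all 8 there, and the scanner software did not find the spot by shape on wildtype arrays 1 and 2.

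Among the auxiliary subunits, Kctd16 had log2 signals of 9.81, 9.79, 9.93 and 9.80 in FD samples, against 10.28, 10.34, 10.10 and 10.13 in wildtype samples. All 4 FD samples lay below all 4 wildtype samples, and FD sample 3 was the highest of the FD group. The single probe, on chromosome 18, had a log2 fold change of -0.38 (SE 0.072, 95% interval -0.54 to -0.22, adjusted p = 0.0294 in limma), a 1.30-fold fall. Kctd16 is among the genes that the study picked out on these same samples, so its direction here is not independent evidence. The difference was -0.44 within row 1 of the slide, against wildtype sample 1 alone, and -0.39 within row 2, from FD sample 4 alone. Over 18 alternatives the log2 fold change lay between -0.42 and -0.28 and the adjusted p between 0.0180 and 0.131, and 9 of the 18 kept the call. Leaving out FD sample 1, 2 or 4 ended the call (adjusted p = 0.0898, 0.101 and 0.0906 in limma), as did leaving out wildtype sample 2 or 4 (adjusted p = 0.0538 and 0.0533 in limma). On FD array 1 the software did not find this spot by shape.

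Kctd12, which speeds the desensitization of GABA-B responses, had 8.32, 8.23, 8.32 and 8.60 in FD samples and 8.42, 8.77, 8.58 and 8.55 in wildtype samples (chr14:103375986-103376045, minus strand). FD samples 1 to 3 lay below every wildtype sample and FD sample 4 lay among them. Its log2 fold change was -0.22 (SE 0.10, 95% interval -0.44 to 0.01, adjusted p = 0.309 in limma). Kctd8, whose protein gives responses that desensitize little, had a bright probe (chr5:69501259-69501318, minus strand) at 11.93, 11.92, 11.88 and 11.94 in FD samples and 11.74, 11.81, 11.89 and 12.04 in wildtype samples. The FD samples lay inside the wildtype range, with a log2 fold change of 0.05 (SE 0.070, 95% interval -0.11 to 0.21, adjusted p = 0.769 in limma). Its dim probe (chr5:69687580-69687639) had 6.35, 6.32, 6.51 and 6.21 in FD samples and 6.59, 6.72, 6.35 and 6.53 in wildtype samples, with a log2 fold change of -0.20 (SE 0.094, adjusted p = 0.314 in limma). The means of both Kctd8 probes differed in opposite directions, and neither was called.

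**Figure D2:**
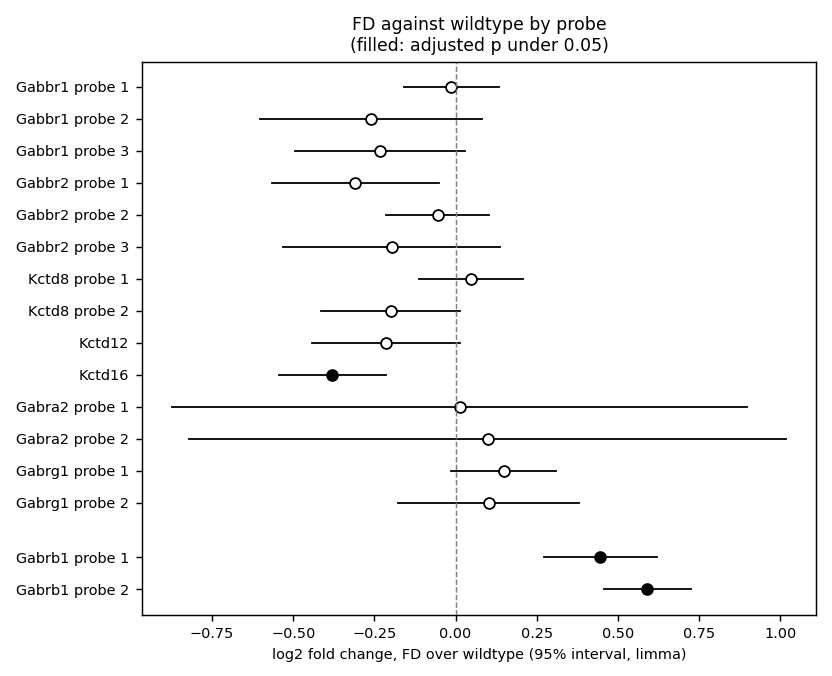
Log2 fold change of FD over wildtype with its 95% interval from limma for the 14 probes and, set apart at the bottom, for both probes of Gabrb1; filled points have an adjusted p under 0.05. The point of Kctd16 (-0.38) is filled and lies left of 0, both of Gabrb1 (0.45 and 0.59) are filled and lie right of 0, and the intervals of Gabra2 are the widest drawn.

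Gabra2, which encodes the α2 subunit, had group means close to each other and the widest spread of the 7 genes, which lay among the wildtype samples. Probe 1 (chr5:71352276-71352334, minus strand) had 11.60, 11.53, 11.32 and 11.58 in FD samples, against 12.40, 10.21, 11.72 and 11.66 in wildtype samples. Probe 2 (chr5:71352306-71352365) had 11.40, 11.31, 11.17 and 11.36 in FD samples, against 12.19, 9.89, 11.41 and 11.36 in wildtype samples. Both probes share 29 bases, so they are not separate evidence, and they show the same order of samples at the extremes. Wildtype sample 2 was 2.17-fold (probe 1) and 2.44-fold (probe 2) below the lowest of the other 7 samples, and wildtype sample 1 was 1.61-fold and 1.71-fold above the highest of the other 7. Wildtype samples 3 and 4 lay close to the FD samples. On wildtype array 2 the software did not find the spot of probe 1 by shape.

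The log2 fold change of Gabra2 was 0.01 for probe 1 (SE 0.39, 95% interval -0.87 to 0.90, adjusted p = 0.990 in limma) and 0.10 for probe 2 (SE 0.40, 95% interval -0.82 to 1.02, adjusted p = 0.925 in limma). Its intervals reach to a 2.02-fold difference, so these arrays do not bound the effect of genotype on Gabra2 closely. Only 126 of the 29432 tested probes (0.428%) had a wildtype range as wide as probe 1. Without wildtype sample 2 the log2 fold changes were -0.42 and -0.34, and without wildtype samples 1 and 2 they were -0.18 and -0.07 (a choice made after seeing the values). Under none of these did the adjusted p pass, the lowest over 18 alternatives being 0.256 for probe 1 and 0.365 for probe 2 in limma.

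Gabrg1, the γ1 subunit gene, lies beside Gabra2 on chromosome 5. Its bright probe (chr5:71143181-71143240, minus strand), printed 10 times on each array, had 10.37, 10.36, 10.42 and 10.36 in FD samples, against 10.14, 10.10, 10.36 and 10.31 in wildtype samples. FD samples spanned 0.067 and wildtype samples 0.26, and wildtype samples 1 and 2 were both on the low side. The SD over the 10 spots within an array was between 0.0714 and 0.125. The log2 fold change was 0.15 (SE 0.071, 95% interval -0.01 to 0.31, adjusted p = 0.322 in limma). Probe 2, dimmer, had 6.27, 6.19, 6.31 and 5.97 in FD samples and 6.36, 5.85, 6.17 and 5.95 in wildtype samples. Wildtype sample 1 was the highest and wildtype sample 2 the lowest of all 8 for this probe, as for Gabra2. Its groups overlapped, with a log2 fold change of 0.10 (SE 0.12, adjusted p = 0.707 in limma).

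**Figure D3:**
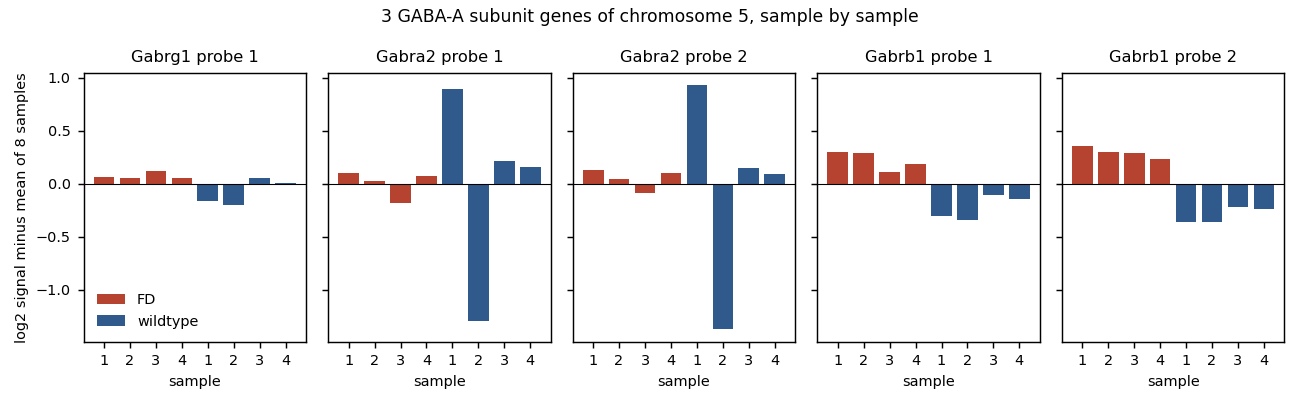
Log2 signal minus the mean of the 8 samples, as 1 bar per sample (FD 1 to 4, then wildtype 1 to 4), for 3 GABA-A subunit genes of chromosome 5. Both Gabra2 probes are high in wildtype sample 1 and low in wildtype sample 2, while Gabrb1 is above 0 in all 4 FD samples and below 0 in all 4 wildtype samples.

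The spread between wildtype samples was wider than that between FD samples for 12 of the 14 probes, and for 70.3% of all tested probes. Wildtype sample 1 was the highest of the wildtype group for 9 of the 14 probes (34.1% of all tested probes), and wildtype sample 2 the lowest for 9 of 14 (27.9% of all tested probes). Probes of 1 gene are counted separately here, and they share their RNA.

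The remaining GABA-A receptor subunits held 1 gene that rose in FD. Of 17 genes on the array, 12 were tested, 1 was higher and 0 were lower, with a median log2 fold change of 0.13 beside 0.02 over all tested probes. Gabrb1, the β1 subunit on chromosome 5, was higher for both of its probes. Its brighter probe (chr5:72540069-72540128) had 9.34, 9.32, 9.14 and 9.22 in FD samples, against 8.73, 8.69, 8.93 and 8.89 in wildtype samples, a log2 fold change of 0.45 (SE 0.077, adjusted p = 0.0194 in limma). The other (chr5:72528086-72528145) had 8.52, 8.47, 8.46 and 8.40 in FD samples, against 7.80, 7.81, 7.95 and 7.93 in wildtype samples, a log2 fold change of 0.59 (SE 0.059, adjusted p = 0.00126 in limma), or 1.51-fold. For neither probe did the groups overlap. The dimmer probe was called under all 18 alternatives (adjusted p between 0.00108 and 0.0325), and the brighter under 11 of 18, with the call lost without FD sample 1, 2 or 4, without both wildtype samples 1 and 2, and under 3 choices of processing given with the other alternatives (highest adjusted p 0.119).

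The next 3 subunits by unadjusted p were not called. Gabre (ε) had a log2 fold change of 0.31 (SE 0.10, adjusted p = 0.155 in limma), Gabrd (δ, found in receptors outside synapses) -0.19 (SE 0.071, adjusted p = 0.216) and Gabra3 (α3) 0.17 (SE 0.078, adjusted p = 0.295). Gabra4, Gabra6, Gabrp, Gabrq and Gabrr3 were not tested. Gabrp and Gabrq were well above background on 0 of 8 arrays, and Gabra4 on 4 FD and 2 wildtype arrays. Of the proteins that anchor, assemble or move GABA-A receptors, 18 of 18 were tested and 0 passed in either direction (3 at an unadjusted p under 0.05 in limma). Gabarap, a ubiquitin-like protein that binds γ subunits, had 15.17, 15.23, 15.28 and 15.23 in FD samples and 15.02, 14.96, 15.06 and 14.98 in wildtype samples, without overlap, and a log2 fold change of 0.22 (SE 0.053, adjusted p = 0.062 in limma). Plcl1 and Arfgef2, which take part in the transport of these receptors, had log2 fold changes of -0.34 (SE 0.10, adjusted p = 0.123) and 0.15 (SE 0.063, adjusted p = 0.259).

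By the brightest probe of each gene, those for the making, packaging, uptake and breakdown of GABA gave 0 calls among 8 tested of 12 (3 at an unadjusted p under 0.05 in limma). The transporters Slc6a12 (BGT1) and Slc6a13 (GAT2), which also carry betaine and other substrates and are known from the meninges, had the largest differences of this list. Slc6a12 had 6.10, 6.14, 6.79 and 6.19 in FD samples, against 7.43, 6.99, 7.11 and 6.76 in wildtype samples, a log2 fold change of -0.77 (SE 0.18, adjusted p = 0.064 in limma). Slc6a13 had 9.19, 8.90, 9.50 and 9.14 in FD samples, against 9.72, 9.77, 9.77 and 9.50 in wildtype samples, a log2 fold change of -0.51 (SE 0.12, adjusted p = 0.066 in limma). For both, FD sample 3 was the FD sample nearest to wildtype, and without it both passed the threshold (adjusted p = 0.0244 and 0.0304). Over 18 alternatives Slc6a12 was called in 2 (adjusted p up to 0.196) and Slc6a13 in 1 (adjusted p up to 0.215). Markers of fibroblasts and meninges had 0 of 8 genes called. Their log2 fold changes were all below 0, from -0.33 to -0.003, with a median of -0.09 and Dcn at -0.29 (SE 0.075, adjusted p = 0.081 in limma). Their mean centred signal ran from -0.25 to 0.05 in FD samples and from -0.07 to 0.18 in wildtype samples. The part of these cells in the values of both transporters was not tested. Slc38a1, a glutamine transporter that feeds GABA synthesis, had a log2 fold change of 0.25 by its brightest probe (SE 0.069, adjusted p = 0.101 in limma). A dimmer probe of Slc38a1 was called, with a log2 fold change of 0.40 (SE 0.080, adjusted p = 0.0340 in limma). For neither Slc38a1 probe did the groups overlap. The synthetic enzymes Gad1 and Gad2 and the vesicular transporter Slc32a1 were not tested. Gad2 was well above background on 0 of 8 arrays, and Gad1 on 4 FD arrays and 1 wildtype array.

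The cation-chloride cotransporters, which set how GABA-A currents act, and their kinases had 0 calls among 8 tested of 10 (1 at an unadjusted p under 0.05 in limma). Slc12a2 (NKCC1), which brings chloride into DRG neurons, had a log2 fold change of -0.08 (SE 0.066, adjusted p = 0.586 in limma). Slc12a4 (KCC1) had -0.21 (SE 0.081, adjusted p = 0.227) and Slc12a7 (KCC4) 0.08 (SE 0.078, adjusted p = 0.646). Proteins that bind the GABA-B receptor gave 0 calls among 9 of 9 tested (3 at an unadjusted p under 0.05). Kctd12b, the remaining GABA-B auxiliary subunit of this family, had a log2 fold change of -0.22 (SE 0.070, adjusted p = 0.144 in limma), the scaffold Mpdz had -0.21 (SE 0.077, adjusted p = 0.204) and Adgrb2, an adhesion receptor, 0.30 (SE 0.12, adjusted p = 0.254).

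Downstream of the GABA-B receptor, among inhibitory G protein subunits, inwardly rectifying potassium channels, calcium channels and adenylyl cyclases, 22 of 24 genes were tested and 0 were called (3 at an unadjusted p under 0.05 in limma). Gnb4, a G protein β subunit, had 12.01, 12.00, 11.96 and 12.07 in FD samples, against 12.56, 12.77, 12.24 and 12.33 in wildtype samples. The groups did not overlap and the FD samples were tightly grouped, with a log2 fold change of -0.47 (SE 0.11, adjusted p = 0.062 in limma). Gng2, a γ subunit, had 0.22 (SE 0.068, adjusted p = 0.128), and Kcnj3, a channel subunit opened by βγ, 0.21 (SE 0.084, adjusted p = 0.247). Of the other subunits of these channels, Kcnj5 and Kcnj6 were well above background on 0 of 8 arrays. Kcnj9 was tested and had a log2 fold change of 0.05 (SE 0.16, adjusted p = 0.887 in limma).

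Of the other genes of the Kctd family, which are not counted among the auxiliary subunits of the GABA-B receptor, 16 of 18 were tested and 0 were called (4 at an unadjusted p under 0.05 in limma, 2 higher and 2 lower). Kctd11, an adaptor of a ubiquitin ligase that the study also picked out on these samples, had 10.53, 10.38, 10.40 and 10.43 in FD samples, against 10.73, 10.61, 10.67 and 10.85 in wildtype samples. Its groups did not overlap, with a log2 fold change of -0.28 (SE 0.069, adjusted p = 0.068 in limma), and 0 of 18 alternatives called it. Kctd6 had 0.26 (SE 0.065, adjusted p = 0.077) and Kctd10 -0.17 (SE 0.053, adjusted p = 0.134), again without overlap.

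**Figure D4:**
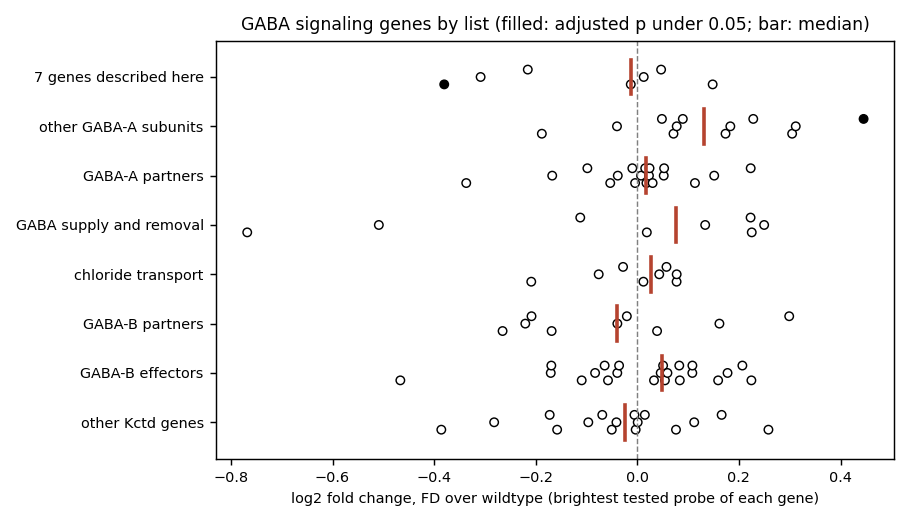
Log2 fold change of FD over wildtype for each tested gene, by its brightest probe, in 8 lists of GABA signaling genes; filled points have an adjusted p under 0.05, the bar is the median of a list, and the vertical offset of points within a row has no meaning. The filled points are Kctd16 (-0.38) and Gabrb1 (0.45), and the lowest point is Slc6a12 (-0.77).

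Markers of neuron classes moved in part with the groups. Of 8 markers of non-peptidergic nociceptors and C low-threshold mechanoreceptors, Lpar3 was lower (log2 fold change of -0.31, SE 0.068, adjusted p = 0.048 in limma) and 5 had a lower mean in FD at an unadjusted p under 0.05, with a median of -0.21. Their mean centred signal lay between -0.13 and -0.03 in FD samples and between 0.06 and 0.15 in wildtype samples, without overlap. Of 5 markers of peptidergic nociceptors, Tac1 (substance P) was higher (0.34, SE 0.075, adjusted p = 0.049 in limma) and 4 had a higher mean in FD at an unadjusted p under 0.05. The remaining marker went the other way, with a log2 fold change of -0.26, at an unadjusted p not under 0.05 in limma. The median of the 5 was 0.14. Their mean centred signal lay between 0.03 and 0.08 in FD samples and between -0.09 and 0.01 in wildtype samples, without overlap. Of 9 general sensory neuron markers, Snap25 was lower (-0.47, SE 0.060, adjusted p = 0.004 in limma). With Snap25 included, 2 of these 9 had a lower mean in FD at an unadjusted p under 0.05 and 0 a higher one. The log2 fold changes of this list ran from -0.47 to 0.09, with a median of -0.07. Of 9 large-diameter neuron markers, Cntnap2 was higher (0.33, SE 0.066, adjusted p = 0.0345 in limma). In the large-diameter list 2 more, Scn1a (-0.17) and Ntrk3 (-0.27), had a lower mean in FD at an unadjusted p under 0.05, the median was -0.02, and with the mean over the probes of a gene 0 were higher. Among markers of satellite glia, Schwann cells, endothelium and macrophages 0 were called. At an unadjusted p under 0.05 there were 3 of 8 satellite glia markers (1 higher, 2 lower, median -0.04), 3 of 11 Schwann cell markers (all lower, median -0.14), 3 of 8 endothelial markers (all lower, median -0.14) and 2 of 8 macrophage markers (1 higher, 1 lower, median -0.20). All 11 Schwann cell markers had log2 fold changes below 0, and their mean centred signal lay between -0.18 and 0.004 in FD samples and between -0.13 and 0.17 in wildtype samples. That of the endothelial markers lay between -0.13 and -0.03 in FD samples and between -0.02 and 0.14 in wildtype samples, without overlap. The non-peptidergic, peptidergic and endothelial lists thus separated the groups, as Kctd16 and Gabrb1 did. Satellite glia markers did not, with a difference of 0.0006 between the group means of their centred signal. The part of any of these cells in the values of Kctd16 and Gabrb1 was not tested.

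By position, the 7 genes lie on 5 chromosomes. Within 1 Mb of Gabbr1, 3 of 28 tested genes or unnamed loci were called, the nearest being Rnf39, 126 kb away, with a log2 fold change of 2.84 (SE 0.067, adjusted p = 2.04e-07 in limma). Within 1 Mb of Kctd8, 1 of 3 was called, Guf1 (0.37, SE 0.074, adjusted p = 0.0339). For Gabbr2, Kctd16, Gabra2 and Gabrg1 it was 0 of 23, 5, 2 and 2. Genes known to differ between C57BL/6 substrains, a list drawn from general knowledge, included 2 lower calls among 7 tested, Fam205a2 (-3.38) and Gm1987 (-1.86). The array design places Fam205a2 on no known chromosome, so these calls are not shown to be separate loci. The others were not called, among them Nnt (0.01, SE 0.054, adjusted p = 0.917 in limma), and the median of the list was 0.01. That list is not complete, so it does not tell whether any of the 7 genes differs between substrains. The part of the colonies in their values was not tested.

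The genes whose 8 signals, each centred on its own mean, lay closest to Kctd16 were Grik1 (root mean square difference 0.042 in log2 signal), Arfrp1 (0.043) and Rtf2 (0.049). Closest to Gabbr1 were Trpc4ap (0.017), Ube2j2 (0.022) and Xpo6 (0.024), and closest to Gabbr2 were Parvb (0.043), Hapln1 (0.044) and Fgfr1 (0.046). For Gabra2, looked up after its values were seen, the closest were Slc13a5 (0.23), Ift122 (0.24) and Polr1a (0.24). This measure grows with the spread of the gene itself, so it is not compared between genes. These are descriptions over 8 samples and the brightest probe of each of the 4 genes.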

How the data were processed

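RNA of 8 DRG samples (4 FD, 4 wildtype) was measured in 1 color on Agilent SurePrint G3 mouse arrays. The deposited scanner values are intensity values (processed signals) that Agilent Feature Extraction 10.7.3.1 corrected for background, per the file headers. The authors also deposited log2 values that they had quantile normalized, with column medians of 8.07 on all 8 arrays, and each column followed the scanner signals of its sample. These values served as an alternative.

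Spots marked as outliers were left out (93 to 221 per array), log2 processed signals were averaged per probe and quantile normalized, and the 29432 probes well above background on all 8 arrays (a probe with several spots needed a share of 0.5) were tested with limma 3.58.1 in R 4.3.3 (linear model, empirical Bayes). P-values were adjusted by Benjamini-Hochberg over all tested probes. Lists used the brightest tested probe of a gene. Of 55681 probes, 28020 were named through their RefSeq accession, and the others kept the name of the file. Precision is limited by 4 arrays per group.

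The members and lists were chosen with earlier results of these data known. Named are the 7 genes with every probe, in each other list the called genes and up to 3 more with the smallest unadjusted p, Kctd11, the closest genes by signal and the nearest called neighbor. Neighbors of Kctd12 and the sequence of 1 probe are not reported here. Genes given beside these (Gla and genes not tested) were chosen with values known. The model was tested on simulated data. Alternatives were 75th percentile scaling, normexp background (offset 50), other filters, the deposited table, the methods' t-test, blocks for replicate number and slide row, outlier spots kept, and each sample left out. Leaving out both wildtype samples 1 and 2 was added after seeing the data. Same-numbered samples did not deviate together (correlations -0.25 to 0.06), so the numbers do not pair them.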

Additional observations from a re-analysis of the deposited data

Results flagged for a closer look

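In 4 of 32 groups of 4 samples, a single sample stood far from the other 3, judged by its gap to the nearest sample as a share of the range of the group (limit of Dixon's test at the 95% level). Chance alone gives about 1 in 20 such groups where groups are independent. The groups here share samples, and some are probes of the same gene, so the count is not set against that rate. FD sample 3 was the highest FD sample of Kctd16 (share 0.852, log2 signal 9.93), the highest of Gabrg1 probe 1 (0.850, 10.42) and the lowest of Gabbr2 probe 3 (0.911, 6.62). Wildtype sample 1 was the highest wildtype sample of Gabbr1 probe 3 (0.929, 10.95). Gabra2 was not among them, since it had a sample apart at both ends of the wildtype group.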

How the results depend on the processing

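Of 252 log2 fold changes of member probes under the alternatives, 229 kept their sign and their side of the threshold, 13 changed sign, 9 lost the call and 1 gained it. The lost calls were all of Kctd16: without a filter on background (log2 fold change of -0.38, adjusted p = 0.0681), under the methods' t-test (adjusted p = 0.109), under the replicate block (adjusted p = 0.131), without wildtype samples 1 and 2 (-0.28, adjusted p = 0.0785), and in 5 of 8 fits that left out 1 sample (adjusted p over the 8 between 0.0382 and 0.101, log2 fold change between -0.42 and -0.34). Member probes called numbered 0 without the filter (2 at an unadjusted p under 0.05), under the methods' t-test (1), under the replicate block (2) and without wildtype samples 1 and 2 (2), 2 with the row of the slide as a block, and from 0 to 1 over the 8 fits without 1 sample. Over all tested probes 556 were called without the filter, 284 under the replicate block, 266 under the methods' t-test, and from 414 to 1038 over the 8 fits without 1 sample. Signs changed for values near 0 or for Gabra2: Gabbr1 probe 1 was 0.047 with 75th percentile scaling and between -0.042 and 0.023 over the fits without 1 sample, above 0 without FD sample 4 or wildtype sample 1. Kctd8 probe 1 was -0.046 without wildtype samples 1 and 2, and Gabrg1 probe 2 was -0.062 with the row block. Gabra2 probe 1 was -0.27 with the row block, between -0.42 and 0.31 over the fits without 1 sample (below 0 without FD sample 1 or 4 or wildtype sample 2) and -0.18 without wildtype samples 1 and 2. Gabra2 probe 2 was -0.21 with the row block, between -0.34 and 0.42 over the fits without 1 sample (below 0 without wildtype sample 2) and -0.075 without wildtype samples 1 and 2. With the mean over a gene's probes in place of the brightest, the list of GABA supply and uptake had 1 gene higher (Slc38a1) in place of 0. Among cell type markers, the same choice gave 3 lower in place of 1 in the non-peptidergic list. It gave 2 lower in place of 1 among general sensory neuron markers and 0 higher in place of 1 among large-diameter neuron markers. The brighter probe of Gabrb1 was not called without the filter on background, by the methods' t-test or under the replicate block. The causes were not tested. Dim probes (Gabbr2 probe 3, Kctd8 probe 2, Gabrg1 probe 2) lie nearest to background.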

Other observations

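Wildtype sample 2 lay more than 1 log2 unit below all other 7 samples for 15 tested probes of 13 genes or unnamed loci, of which both Gabra2 probes were 2 and 9 were on chromosome 6. On chromosome 6 were Mtmr14 (3.20 below the lowest of the others), Tmem72 (2.19), Ogg1 (1.86), Ift122 (1.66), Gpnmb (1.23), Mrpl35 (1.02) and Polr1a. Wildtype sample 1, which was highest for Gabra2, lay as far above all others for 65 probes, and between 59 and 81 probes did so for each of the 4 wildtype samples, against 2 to 27 for each of the 4 FD samples. These genes were named after their values were seen, and no test was made of them.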
